A study of Mus musculus with 3 samples.

Results

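Epithelial cells carrying Kdr, Wfdc1 or Edn1 were picked from lung cells sorted for 3 lineage labels 4 weeks after bleomycin, a drug that injures the alveolar epithelium. A cell was a member when it had 3000 or more UMIs (unique molecular identifiers, 1 per captured RNA molecule), 500 or more genes and at most 15% mitochondrial UMIs, together with at least 2 of the 4 genes Kdr, Wfdc1, Gnat3 and Edn1 at 2 or more UMIs each. It also needed at least 1 UMI of Epcam, the pan-epithelial adhesion molecule, no UMI of Pecam1, an endothelial adhesion molecule, under 0.02% Chia1 and under 1% Sftpc. The rule found 186 cells among 16627 barcodes, of which 8781 passed the limits on depth and quality and 6237 of those were Epcam-positive and Pecam1-negative, called epithelial cells below. These genes chose the members, so their levels are given as a description.

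All libraries came from mice of the genotype Scgb1a1-CreER;Sftpc-DreER;R26-TLR, in which a tamoxifen-inducible Cre is driven by Scgb1a1, a secretoglobin of airway club cells, and an inducible Dre by Sftpc, a surfactant protein of alveolar type 2 (AT2) cells. All were treated with bleomycin, and no uninjured library was analysed here. Club-Tracer cells were sorted as tdTomato-positive, AT2-Tracer cells as ZsGreen-positive, and BASC-Tracer cells (written BASCs-Tracer in the labels) as positive for both, BASC standing for bronchioalveolar stem cell. The sources used here do not give the age of the animals, the number pooled in a library or the time of label induction. Each lineage had 1 library, so no difference between libraries has a replicate check, no test was run, and every interval is a 95% interval of counting error only.

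Kdr encodes the main signalling receptor for vascular endothelial growth factor A and is best known from endothelium. Edn1 encodes the precursor of endothelin-1, a vasoconstrictor peptide that epithelia can also release, and Wfdc1 a small secreted protein with a whey acidic protein domain. Gnat3 encodes gustducin, the G protein alpha subunit of taste receptor cells and of tuft cells, the chemosensory cells of airway and gut. Pigr, named as a marker of these cells although the rule does not use it, encodes the receptor that carries polymeric immunoglobulin across secretory epithelium. In the mm10 assembly the protein-coding gene Kdr (ENSMUSG00000062960) lies on the reverse strand of chromosome 5 from 75932827 to 75978458. Wfdc1 (ENSMUSG00000023336) lies on the forward strand of chromosome 8 from 119666365 to 119688222, Edn1 (ENSMUSG00000021367) on the forward strand of chromosome 13 from 42301476 to 42307990, Gnat3 (ENSMUSG00000028777) on the forward strand of chromosome 5 from 17962549 to 18019834, and Pigr (ENSMUSG00000026417) on the forward strand of chromosome 1 from 130826684 to 130852249.

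Libraries were pooled for sequencing, per the labels' protocols, and 73 barcodes occurred in both the Club-Tracer and BASC-Tracer libraries, 122 in Club-Tracer and AT2-Tracer, and 94 in BASC-Tracer and AT2-Tracer. Among members this touched 3 of 137 in the Club-Tracer library, 11 of 40 in the BASC-Tracer library and 0 of 9 in the AT2-Tracer library. In the BASC-Tracer library these were deep cells, with a median of 59663 UMIs over the 10 that also occurred in the Club-Tracer library, where the same barcodes held a median of 740 UMIs. No copy in another library passed the limits, and none exceeded 7.70% of its member's UMIs. The number of BASC-Tracer members, the counts of called genes and the log2 ratios of some named genes are therefore also given without these 11 cells. The list counts, held-out shares and CPM values include them.

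The members sat almost wholly in the libraries that carry the Scgb1a1 label. The Club-Tracer library held 137, which was 5.61% (4.73 to 6.60) of its 2441 epithelial cells, and the BASC-Tracer library 40, or 4.60% (3.31 to 6.22) of 869. The AT2-Tracer library held 9 of 2927, or 0.307% (0.141 to 0.583). The Club-Tracer and BASC-Tracer intervals overlap, and the AT2-Tracer interval lies below both. Without barcodes shared between libraries the numbers were 134, 29 and 9. The Chia1 and Sftpc limits of the rule left 1604 of these epithelial cells in the Club-Tracer, 438 in the BASC-Tracer and 1311 in the AT2-Tracer library. Of those cells, members made up 8.54% (7.22 to 10.0), 9.13% (6.60 to 12.2) and 0.686% (0.314 to 1.30).

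A rule that asks for counted molecules favours deep cells, and the members were deeper than other epithelial cells in each library. Their medians were 28103 UMIs against 19055 in the Club-Tracer library, 35984 against 24080 in the BASC-Tracer library and 25475 against 15156 in the AT2-Tracer library. In the Club-Tracer library the share of members was 1.60% (0.695 to 3.13) of epithelial cells with 3000 to 10000 UMIs, 5.13% from 10000 to 20000, 6.67% from 20000 to 40000 and 10.4% (7.20 to 14.5) above that. BASC-Tracer shares were 0, 1.90%, 5.87% and 8.56% over the same ranges, with an interval of 0 to 2.78 for the 131 shallowest cells. In the AT2-Tracer library no range exceeded 0.696% (0.256 to 1.51). At 10000 to 20000 UMIs the Club-Tracer and BASC-Tracer intervals still overlapped (3.67 to 6.95 and 0.521 to 4.80), and the AT2-Tracer interval (0.0525 to 0.742) lay below the Club-Tracer one. So the share depended on depth, and the low AT2-Tracer share was also seen between cells of like depth. These shares are of all epithelial cells, including those that the Chia1 and Sftpc limits bar, so part of the AT2-Tracer difference follows from the rule.

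**Figure D1:**
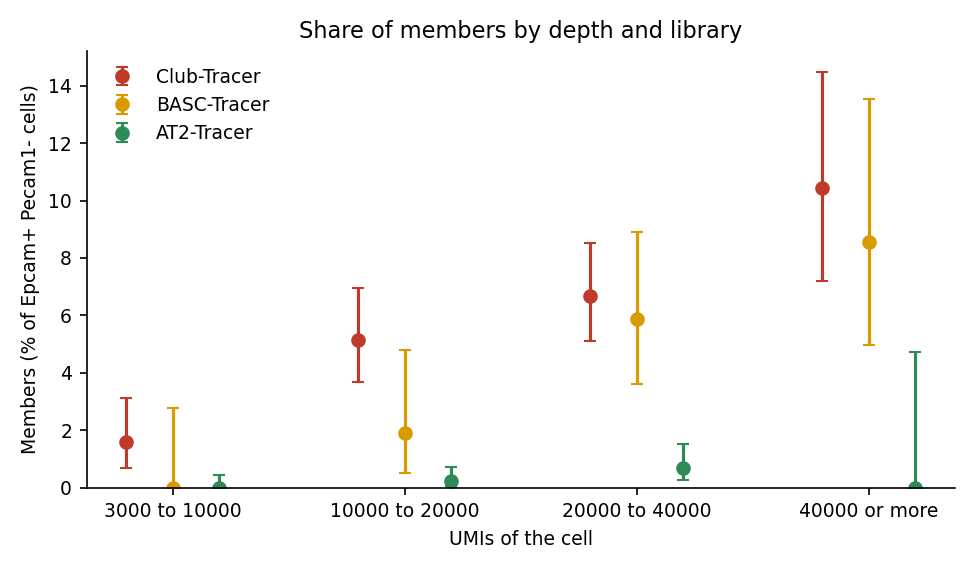
Percentage of Epcam-positive, Pecam1-negative cells that met the rule (vertical axis), by the cell's UMI count (horizontal axis) and library, with bars for exact 95% binomial intervals. The Club-Tracer share goes from 1.60% in the shallowest to 10.4% in the deepest cells, and AT2-Tracer points stay at 0.696% or lower.

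The threshold of 2 UMIs lay inside a continuous range. The second gene stood at exactly 2 UMIs in 86 of the 186 members, and at 3 or more in the other 100. Just outside were 164 otherwise eligible cells whose second gene had 1 UMI. A further 93 cells met the gene count and failed only on Chia1, 7 failed only on Sftpc, 10 on Pecam1 and 3 on Epcam. Of the members 153 carried 2 of the 4 genes, 33 carried 3 and none carried 4.

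Members were joined by different pairs of genes. Wfdc1 with Edn1 was the pair in 75 members (40.3%), Kdr with Wfdc1 in 59 (31.7%) and Kdr with Edn1 in 19 (10.2%), and all 3 of these genes were present in 33 (17.7%). Gnat3 chose no member. It had 0 UMIs in the 137 Club-Tracer members and 1 UMI in the 40 BASC-Tracer members. Only 3 epithelial cells in the series held 2 or more Gnat3 UMIs, all in the Club-Tracer library, with 25, 20 and 161 UMIs. Those 3 cells had 0 Kdr UMIs each, and all carried the tuft cell genes Trpm5 (9, 2 and 13 UMIs), Gng13 (32, 70 and 134), Avil (8, 20 and 18) and Dclk1 (31, 31 and 20). Of the label's markers Gnat3 was therefore not a gene of the members, and 66.4% of Club-Tracer members had a UMI of Kdr.

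The vascular and endothelin genes reached moderate levels. Kdr stood at 102 counts per 1e6 UMIs (CPM; 92.2 to 113) in Club-Tracer members, 111 (95.2 to 128) in BASC-Tracer members and 71.7 (41.0 to 116) in AT2-Tracer members, with single cells reaching 18, 26 and 8 UMIs. In other epithelial cells of the same libraries Kdr stood at 14.2, 15.1 and 0.123 CPM. Edn1 stood at 154, 147 and 193 CPM in members and at 35.2, 23.5 and 29.3 CPM in other epithelial cells. Wfdc1 stood at 206, 192 and 125 CPM in members and at 51.4, 33.0 and 14.96 CPM in other epithelial cells. One Club-Tracer member alone held 96 of that library's 787 Wfdc1 UMIs, and one BASC-Tracer member 92 of 320. Outside the members Edn1 and Wfdc1 were present in all 3 libraries, whereas Kdr was close to 0 in the AT2-Tracer library.

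Free RNA was gauged in leukocyte clusters of the same libraries. Kdr had 0 UMIs in 68 such Club-Tracer cells, which allows a share of up to 4.41% of cells with a UMI (3 counts over the number of cells), and in 126 BASC-Tracer cells, which allows up to 2.38% by the same floor. Wfdc1 stood at 9.07 and 2.97 CPM in these cells, Edn1 at 1.81 and 2.22 CPM and Pigr at 3.63 and 0.741 CPM. Scgb1a1 stood at 2987 and 7309 CPM, with 62.5% of its BASC-Tracer UMIs in 1 cell, and was found in 100% and 99.2% of them. Depth was lower in these cells, at a median of 4707 and 9353 UMIs. After thinning every cell to 3000 UMIs, Kdr was seen in 30.7% (23.1 to 39.1) of Club-Tracer members, against 66.4% unthinned, and in 3.30% (2.61 to 4.11) of other epithelial cells, against 13.3% unthinned. In the BASC-Tracer library the thinned shares were 30.0% (16.6 to 46.5) and 2.41% (1.48 to 3.70).

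Whether the genes travel together was examined by choosing cells on at least 2 of the other 3 genes and reading the gene left out. In the Club-Tracer library Kdr was then present in 45.2% (34.3 to 56.5) of 84 cells, against 9.63% (7.76 to 11.8) of 883 cells with none of the other genes. Wfdc1 was present in 74.4% (58.8 to 86.5) of 43 cells against 21.4% (18.9 to 24.0) of 1015, and Edn1 in 57.1% (44.7 to 68.9) of 70 cells against 20.7% (18.2 to 23.3) of 1006. In the BASC-Tracer library the Kdr share was 22.2% (6.41 to 47.6) of 18 cells against 10.7% (7.08 to 15.2) of 244, and the Edn1 share 21.1% (6.05 to 45.6) of 19 against 18.4% (13.9 to 23.5) of 267. The Wfdc1 share there was 66.7% (29.9 to 92.5) of 9 cells against 24.8% (20.0 to 30.2) of 290, and the intervals of all 3 genes overlap in that library. The cells chosen this way were also deeper, at medians of 29109 against 12354 UMIs for Kdr in the Club-Tracer library, and the part of depth in these shares was not tested. Thinned cells were too few for the comparison, with 4 Club-Tracer cells left to read Kdr in.

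When all cells were clustered on genes other than the 4 rule genes and the reporters, the members did not form a cluster of their own. They fell into 10 of 24 clusters, and 5 that were marked as likely doublets were not clustered. Cluster 8 held 62, cluster 2 held 53, cluster 4 held 28, cluster 5 held 19, cluster 12 held 11 and cluster 13 held 4, and 4 further clusters held 1 each. Cluster 8 was led by Retnla, Scgb1a1, Pon1, Cyp2f2 and Hp, genes of club cells, and cluster 5 by Scgb3a1, Bpifa1, Reg3g, Bpifb1 and Muc5b, genes of goblet and other secretory cells. Cluster 12 was led by Cldn4, Sprr1a and Clu, genes of epithelium in repair, and cluster 4 by the basal cell keratin genes Krt14 and Krt5 with Ly6d. Few of the 21 Club-Tracer members of cluster 4 had a UMI of Krt14 (4.76%) or Krt5 (9.52%). Krt7 was found in 100% of them and Ly6a in 90.5%. The 448 other Club-Tracer cells of cluster 4 had Krt14 in 12.7%, Krt5 in 21.9%, Krt7 in 96.7% and Ly6a in 95.5%. Most cells of the cluster thus lacked the 2 basal keratins, members or not. Cluster 13 was led by the p53 targets Cdkn1a, Phlda3 and Ccng1. The members are therefore called by their rule here and given no cell type name.

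**Figure D2:**
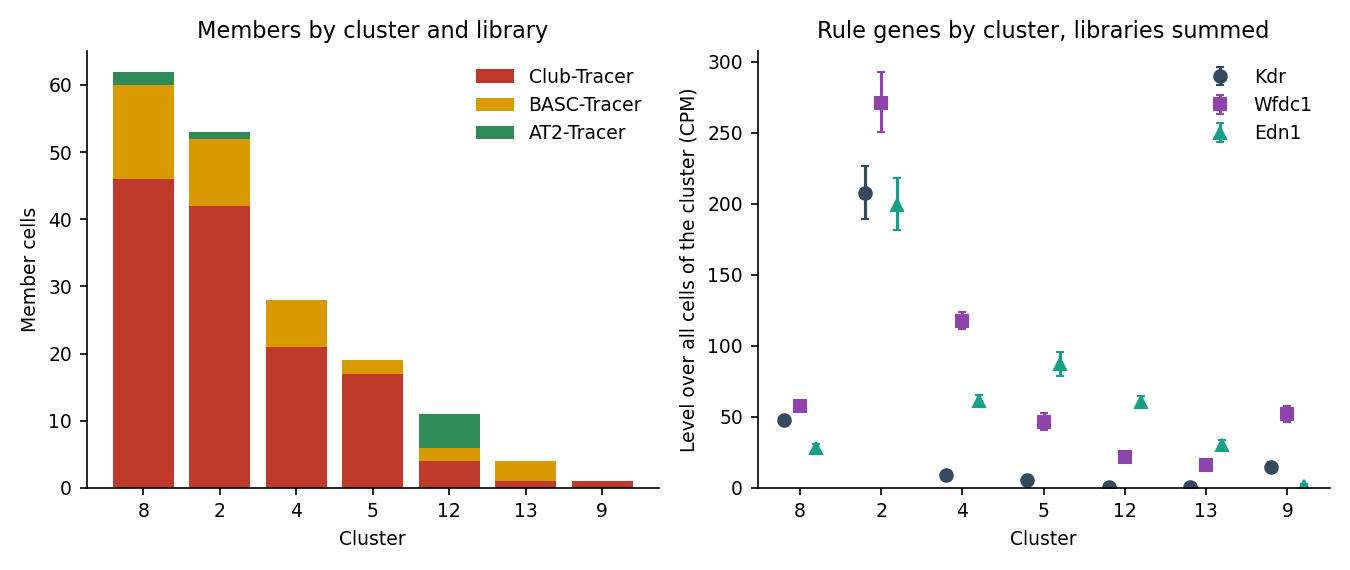
Left, number of member cells in each cluster (vertical axis) by library, for the 6 clusters with the most members and for cluster 9, a second cluster led by Scgb1a1. Right, Kdr, Wfdc1 and Edn1 in CPM summed over all cells of those clusters, with exact 95% Poisson intervals; libraries are pooled, and of the clusters shown only clusters 2 and 8 exceed 40 CPM of Kdr.

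Kdr was highest in cluster 2, although the clustering had not used it. Its level over all 168 cells of that cluster, members or not, was 207 CPM, against 47.5 in cluster 8, 14.8 in cluster 9, 8.81 in cluster 4, 5.75 in cluster 5 and 0.336 in cluster 12. The level in cluster 2 had overlapping intervals in 2 libraries, at 215 CPM (193 to 239) in 126 Club-Tracer cells and 190 (159 to 226) in 38 BASC-Tracer cells. The 4 AT2-Tracer cells stood at 201 (86.7 to 396), but Kdr and Wfdc1 were each found in only 25% of them. That was the 1 member there, chosen by the rule on these genes, with 8 Kdr, 4 Wfdc1 and 5 Pigr UMIs. For the other genes the order of clusters differed between libraries. Wfdc1 in cluster 2 stood at 327 CPM (300 to 357) in the Club-Tracer, 151 (123 to 183) in the BASC-Tracer and 100.4 (27.3 to 257) in the AT2-Tracer library. In cluster 15, led by the alveolar type 1 genes Rtkn2, Spock2 and Akap5, Wfdc1 stood at 334 (260 to 422), 161 (128 to 201) and 108 (97.3 to 119) CPM, so the 2 clusters had overlapping intervals in each library, while Kdr had 0 UMIs in cluster 15. Edn1 in cluster 2 stood at 236 CPM for Club-Tracer and 123 CPM for BASC-Tracer cells, above the other clusters of those libraries, and at 50.2 CPM in the 4 AT2-Tracer cells, where cluster 12 stood at 62.9. Pigr in cluster 2 stood at 295, 222 and 125 CPM, the last from the same 1 member, and 3 BASC-Tracer cells of cluster 5 stood at 278.

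In the Club-Tracer library 4.05% (3.39 to 4.81) of all clustered cells lay in cluster 2. The share was 2.74% (1.95 to 3.75) in the BASC-Tracer library and 0.0695% (0.0189 to 0.178) in the AT2-Tracer library. Beside Kdr, Pigr and Wfdc1 its leading genes were the histone gene Hist1h4h, Mbd1, which encodes a methyl-CpG binding protein, Ephx1, the microsomal epoxide hydrolase, and Cavin2, a coat protein of caveolae. The rule took 53 of its cells and left 115, of which 69 had under 2 of the rule genes, 25 had too much Chia1, 15 lacked Epcam or had Pecam1 and 6 had under 3000 UMIs. Cells left out were shallower, with a median of 11274 UMIs against 15871. The number of members in the cluster with the most Kdr depends on how finely cells are split: at a coarser resolution of 0.5 it was 123, in a cluster of 997 cells, and at a finer resolution of 2 it was 53, in 165 cells.

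Scgb1a1 separated the members further. It took a median of 12.95% of a Club-Tracer member's UMIs, with a range from 0.0631% to 53.7%, and 7.46% of a BASC-Tracer member's, from 0.0297% to 50.1%. Members in cluster 8 had a median of 40.0%, those in cluster 5 18.0%, those in cluster 4 3.47% and those in cluster 2 2.59%, while no member in cluster 12 exceeded 0.505%. The lowest of these percentages are within the range of the Scgb1a1 level in leukocytes and are not read as expression. The clusters also differed in which gene was present. Kdr had 2 or more UMIs in 47 of 53 members of cluster 2 and 47 of 62 of cluster 8, and it was at 0 in 24 of 28 members of cluster 4, 14 of 19 of cluster 5 and 9 of 11 of cluster 12. Most members outside clusters 2 and 8 thus entered through Wfdc1 and Edn1.

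**Figure D3:**
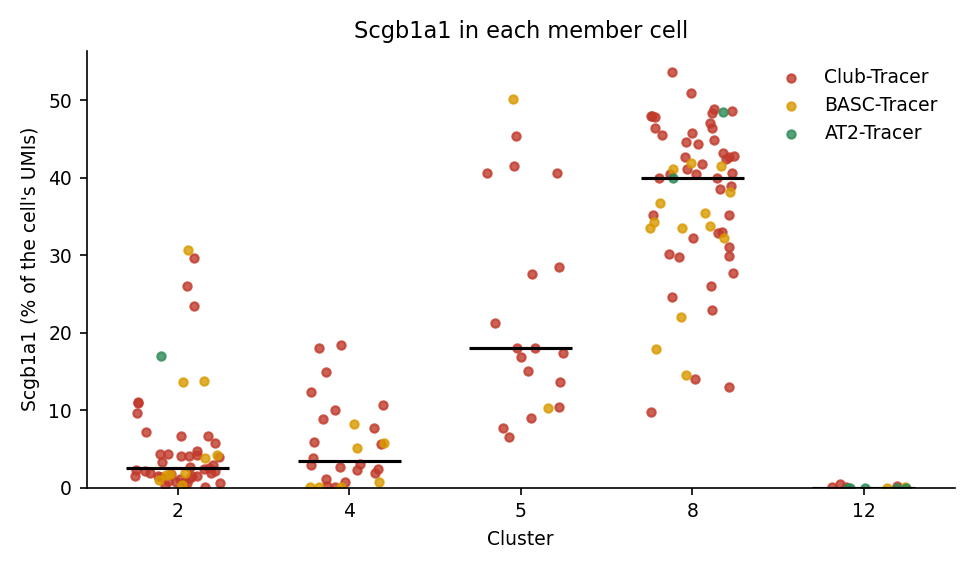
Scgb1a1 as a percentage of the cell's UMIs (vertical axis) in each member (1 point per cell, coloured by library) of the 5 clusters with the most members (horizontal axis), with a line at the median of each cluster. Members of cluster 8 centre on 40.0%, those of cluster 2 on 2.59%, and those of cluster 12 lie at or near 0.

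The 9 members of the AT2-Tracer library were of 2 kinds. In 3 of them Kdr and Wfdc1 were present, with 6, 2 and 8 Kdr UMIs, and these cells held 18340, 10298 and 1918 Scgb1a1 UMIs together with 301, 143 and 90 UMIs of Cyp2f2, a cytochrome P450 of club cells. They fell in clusters 8 and 2, and the green reporter ZsGFP had 127, 48 and 0 UMIs in them. The other 6 had Wfdc1 and Edn1 with no UMI of Kdr, Scgb1a1 or Cyp2f2, carried 83 to 405 ZsGFP UMIs, and fell in clusters 12 (5 cells) and 15 (1 cell). None of the 9 had a UMI of the red reporter tdT.

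Reporter RNA in the members followed the sort of each library. In Club-Tracer members tdT stood at 432 CPM (412 to 453), against 650 in other epithelial cells, and ZsGFP at 22.0 against 24.2 CPM. BASC-Tracer members had tdT at 808 (765 to 852) against 1272 CPM and ZsGFP at 8447 against 8548 CPM. So tdT was lower per UMI in members of both libraries and ZsGFP moved little. Scgb1a1 stood at 237233 against 172420 CPM and 178506 against 75986 CPM, and its part in the tdT difference was not tested.

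All genes were then compared between members and the other epithelial cells of the same library. A gene was tested when it reached 50 CPM and 30 UMIs in either class, and called when the ratio of CPM + 5 was 2-fold or more, a measure of size and not a test. In the Club-Tracer library 30 of 2594 genes (1.16%) were 2-fold higher in members and 96 (3.70%) 2-fold lower. In the BASC-Tracer library 66 of 3203 (2.06%) were higher and 149 (4.65%) lower, and without shared barcodes 103 were higher and 148 lower. Both libraries called 19 genes higher, which is 63.3% of the Club-Tracer and 28.8% of the BASC-Tracer list, and 54 lower (56.2% and 36.2%), and none in opposite directions. The counts of higher genes include Kdr, Wfdc1 and Edn1 and those of lower genes Chia1 and Sftpc, which the rule fixed. The other epithelial cells include the cells of cluster 2 that the rule left out. They also include cells of leukocyte clusters in which Epcam was found.

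The genes highest in both libraries included the transport receptor Pigr, which stood at 193 CPM (180 to 208) in Club-Tracer members against 64.7, a ratio of 2.99 (2.76 to 3.24), and at 121 (105 to 139) against 31.8 CPM in BASC-Tracer members, a ratio of 3.79 (3.23 to 4.44). Its 13 UMIs in AT2-Tracer members lay in 33.3% of the 9 cells. Cavin2 stood at 246 against 81.9 CPM and at 219 against 68.3 CPM, a ratio of 3.01 (2.80 to 3.23) and 3.21 (2.86 to 3.60). Hist1h4h stood at 66.5 against 18.4 and 61.3 against 24.7 CPM, and it was found in 32.1% and 40.0% of members. These 3 genes were above the 2-fold line in both libraries. The BASC-Tracer log2 ratios of Pigr, Cavin2 and Mbd1 were 1.77, 1.61 and 1.60, and without shared barcodes 2.56, 2.33 and 2.23, while that of Kdr went from 2.52 to 3.19.

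Further genes called higher in both libraries had varied roles. Ephx1 stood at 466 (444 to 488) against 200 CPM in the Club-Tracer library and 473 (441 to 507) against 180 in the BASC-Tracer library, and in 97.1% and 97.5% of members. Aldh3a1, an aldehyde dehydrogenase, stood at 174 against 80.2 and 94.4 against 31.6 CPM, and Pon1, a paraoxonase, at 357 against 172 and 242 against 77.4 CPM. Pon1 followed the cluster: Club-Tracer members in cluster 8 stood at 620 CPM and its other cells at 381, while members in cluster 2 stood at 24.9 CPM. For the 3 BASC-Tracer members with 3 rule genes its log2 ratio was -4.23. Chd9, a chromatin remodeller, stood at 254 against 104 and 175 against 69.5 CPM. Chad, a matrix protein named chondroadherin, stood at 91.9 against 29.3 and 64.9 against 8.54 CPM. Casp4, an inflammatory caspase that senses bacterial lipopolysaccharide, stood at 65.7 against 28.5 and 62.5 against 22.5 CPM, and Ccnd2, a D-type cyclin, at 52.3 against 18.8 and 58.3 against 22.8 CPM. Within clusters the differences varied. Aldh3a1 stood at 79.4, 242, 237 and 173 CPM in Club-Tracer members of clusters 2, 4, 5 and 8, against 105, 59.7, 221 and 115 in their other cells. Casp4 stood at 142, 39.1, 37.9 and 58.1 CPM against 119, 25.4, 34.4 and 41.9 CPM in the same clusters.

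For other genes a single cell carried much of the sum. Upk3a, a uroplakin known from variant club cells, stood at 94.5 against 29.5 CPM in the Club-Tracer library and 52.3 against 5.74 in the BASC-Tracer library, and 1 cell held 41.3% and 50.6% of those UMIs. Ltf, which encodes the antimicrobial protein lactoferrin, stood at 247 against 91.2 and 154 against 11.5 CPM, with 30.2% and 56.4% in 1 cell. Club-Tracer members of clusters 2, 4, 5 and 8 had Ltf at 3.11, 649, 712 and 44.5 CPM, against 26.8, 78.3, 711 and 43.8 in their other cells. Mbd1 stood at 82.4 against 27.6 and 149 against 45.8 CPM, with 43.5% of the BASC-Tracer UMIs in 1 cell, and Cldn4, a tight junction claudin, at 620 against 281 and 718 against 317 CPM, with 37.3% in 1 BASC-Tracer cell. Members with 3 rule genes went the other way for Upk3a and Ltf in the Club-Tracer library, at log2 ratios of -1.88 and -2.99.

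**Figure D4:**
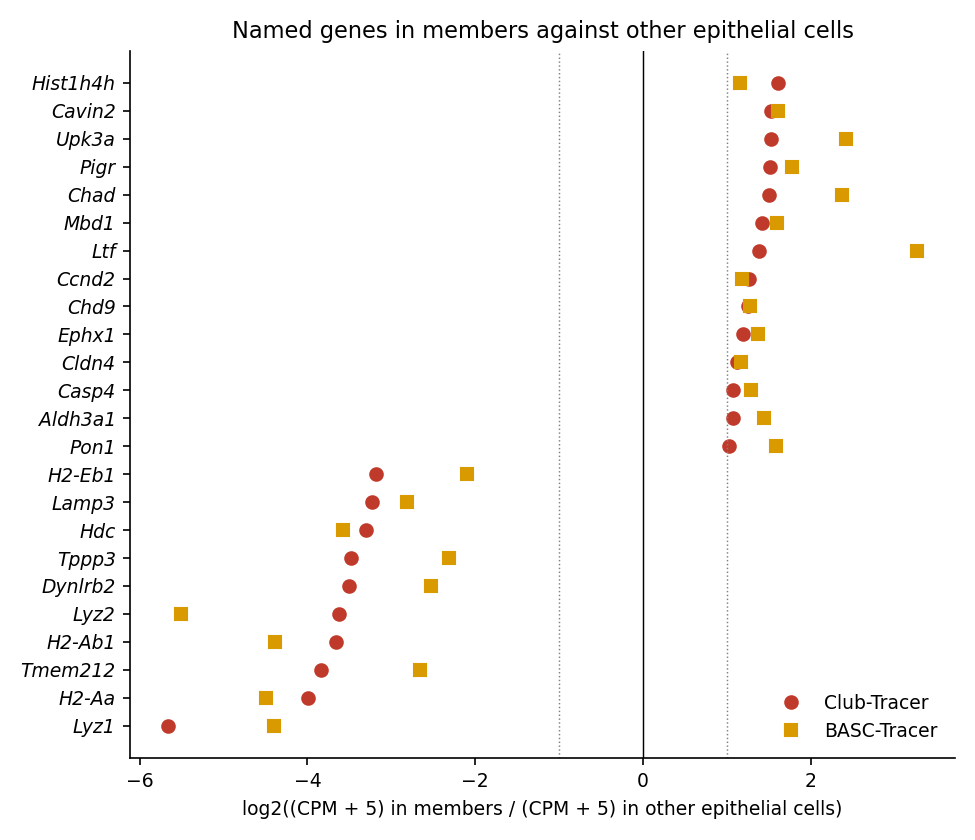
log2 ratio of CPM + 5 in members over other epithelial cells (horizontal axis) for the named genes (vertical axis), circles for the Club-Tracer and squares for the BASC-Tracer library, dotted lines at 2-fold. The 14 higher genes lie between 1.03 and 3.27 and the 10 lower genes between -2.10 and -5.66, with both libraries on the same side.

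Genes lower in members marked ciliated cells, AT2 cells and antigen presentation. Lyz1, a lysozyme, stood at 10.5 against 779 CPM in the Club-Tracer library and 23.4 against 597 in the BASC-Tracer library, and Lyz2 at 430 against 5372 and 136 against 6386 CPM. Lamp3, a lamellar body membrane protein, stood at 8.64 against 122.5 and 52.9 against 402 CPM. Hdc, which encodes histidine decarboxylase, stood at 3.93 against 82.9 and 1.20 against 68.9 CPM. The rule removed cells with 1% Sftpc or more, so low levels of genes that go with Sftpc partly follow from the choice.

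By list, AT2 markers other than Sftpc were lower in 10 of 14 tested genes in the Club-Tracer library and 14 of 15 in the BASC-Tracer library, with median log2 ratios of -2.12 and -2.09. Over all tested genes the medians were -0.04 and -0.04, and 3.70% and 4.65% of genes were lower. Ciliated markers were lower in 8 of 9 and 5 of 6 tested genes, among them Tmem212 at 7.85 against 178 and 7.81 against 75.9 CPM and Tppp3 at 14.9 against 217 and 14.4 against 91.2 CPM. All 4 tested MHC class II genes were lower in both libraries, with medians of -3.42 and -3.50. The invariant chain gene Cd74 stood at 216 against 1034 and 287 against 1765 CPM, and H2-Aa, which encodes a class II alpha chain, at 13.1 against 284 and 10.8 against 352 CPM. The other epithelial cells include 26 Club-Tracer and 6 BASC-Tracer cells of leukocyte cluster 10, led by H2-Eb1, H2-Ab1 and H2-Aa. Club-Tracer cells of clusters 2, 4, 5 and 8 that were not members had H2-Aa at 5.83, 33.7, 17.8 and 16.3 CPM. The same cells had Tmem212 at 2.33, 2.08, 1.49 and 1.09 CPM and Tppp3 at 12.8, 9.02, 6.19 and 4.43 CPM. Hdc stood at 1.17, 3.93, 7.43 and 5.01 CPM in them. Low H2-Aa, Tmem212, Tppp3 and Hdc were thus not particular to the members.

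Lists of secretory and airway genes differed in their counts. Over all tested genes 1.16% were higher in the Club-Tracer and 2.06% in the BASC-Tracer library. Of 12 tested club markers 0 were 2-fold higher in the Club-Tracer library and 5 in the BASC-Tracer library, with medians of 0.56 and 0.92. Of the airway metabolism genes 1 of 16 was higher and 1 lower in the Club-Tracer library, and 7 of 15 were higher and 1 lower in the BASC-Tracer library, with medians of 0.54 and 0.98. Fmo2, a flavin monooxygenase, stood at 693 against 481 and 682 against 308 CPM, and Gsto1, a glutathione transferase, at 418 against 299 and 344 against 110 CPM. Goblet markers were higher in 4 of 6 tested genes in the Club-Tracer library, with Reg3g, an antibacterial lectin, at 803 against 196 CPM and Bpifb1, a secreted lipid-binding protein, at 228 against 99.9 CPM, and 1 cell holding 39.3% and 34.8% of their UMIs. The goblet list summed to 2 UMIs in the median Club-Tracer member and to 12157 in the highest, so these levels were not those of most members. Among BASC-Tracer cells 1 goblet marker was tested and higher, Scgb3a1 at 5303 against 54.6 CPM, with 78.5% of its UMIs in 1 cell. Of the mucosal defence genes 6 were higher and 4 lower of 15 in the Club-Tracer library, and 3 and 4 of 10 in the BASC-Tracer library. Lcn2, an iron-sequestering antimicrobial protein, was among the lower genes, at 482 against 998 and 455 against 1496 CPM.

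Other epithelial programs differed by less than 2-fold in most genes. Few genes of any kind were called: 1.16% higher and 3.70% lower in the Club-Tracer library, 2.06% and 4.65% in the BASC-Tracer library. Counts of 0 in the lists of this paragraph are near those shares. Keratin genes of simple epithelium were present in nearly all members, with Krt8 at 1460 against 1017 and 1635 against 1031 CPM and Krt18 at 2199 against 1246 and 1753 against 1170 CPM. Of the lung transcription factors 0 of 19 were higher and 2 lower in the Club-Tracer library, and 1 of 20 higher and 2 lower in the BASC-Tracer library. Nkx2-1, the lineage factor of lung epithelium, stood at 91.6 against 116 and 121 against 189 CPM, and Foxj1, the master factor of motile cilia, at 12.6 against 141 and 19.2 against 75.8 CPM. None of the p53 targets tested, 6 and 7, was called, with Cdkn1a at 714 against 415 and 755 against 774 CPM. None of the 11 immediate early and heat shock genes was called in either library, with Fos at 1454 against 1723 and 1335 against 1911 CPM. Of the alveolar type 1 markers 0 of 7 were called in the Club-Tracer library, while 4 of 10 were lower in the BASC-Tracer library, among them Ager, which encodes a receptor for advanced glycation end products, at 510 against 1233 CPM.

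Few genes that act with Kdr and Edn1 reached the limits for testing. Of the other VEGF signalling genes 0 of 1 tested was called in the Club-Tracer library, and 0 of 3 were higher and 1 lower in the BASC-Tracer library. The ligand gene Vegfa stood at 84.5 against 95.5 and 183 against 219 CPM, the receptor gene Flt1 at 4.19 against 3.54 and 0.601 against 1.11 CPM, and the co-receptor gene Nrp1 at 6.02 against 19.8 and 12.6 against 52.6 CPM. No endothelin gene other than Edn1 was tested in the Club-Tracer library, and 1 was tested in the BASC-Tracer library and not called. Ece1, which encodes the enzyme that cuts endothelin from its precursor, stood at 39.0 against 49.8 and 43.3 against 75.9 CPM, and the endothelin receptor genes Ednra and Ednrb had 0 UMIs in members of both libraries. Of the other genes with a whey acidic protein domain, Wfdc2 stood at 6467 against 6779 and 5169 against 4480 CPM, and Slpi, a protease inhibitor, at 56.8 against 96.3 and 85.3 against 193 CPM.

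Defining markers of endothelial and tuft cells, the cell types best known for Kdr and Gnat3, were mostly at 0. Of 18 endothelial markers 13 had 0 UMIs in Club-Tracer members and 14 in BASC-Tracer members, Cdh5, Cldn5, Tek and Tie1 among them, and the list summed to 7.07 against 22.4 CPM and 10.2 against 60.7 CPM. Pecam1 was at 0 by the rule. Of 15 tuft markers 9 had 0 UMIs in each library, including Trpm5 and Pou2f3. The tuft list summed to 57.3 against 86.1 CPM and 75.1 against 153 CPM, with a median of 1 UMI per member in each library. Leukocyte markers summed to 439 against 5437 and 148 against 6485 CPM, mostly Lyz2. Doublet scoring marked 4 Club-Tracer members, 1 BASC-Tracer member and 0 AT2-Tracer members.

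Within the Club-Tracer library the 42 members in cluster 2 differed from the other 95 in a larger share of genes than the classes of any other comparison made. They were shallower, with medians of 13670.5 against 32339 UMIs, and the median log2 ratio over all tested genes was 0.86. Of 3633 tested genes 1474 (40.6%) were called, 1383 higher and 91 lower, and after scaling to that median 163 were higher and 449 lower. Relative to the median, Hist1h4h was higher by 3.68 on the log2 scale (336 against 11.96 CPM), Mbd1 by 3.28 (392 against 19.8 CPM), Cdkn1a, a cell cycle inhibitor and p53 target, by 2.39 (2796 against 293 CPM) and Cavin2 by 2.23 (932 against 108 CPM). Lower were the resistin-like gene Retnla by a log2 ratio of -7.69 (76.3 against 9281 CPM), Scgb3a1 by -7.43 (104 against 10384 CPM), and Ltf by -6.06 (3.11 against 296 CPM), while Ly6d, a surface protein gene, had 0 UMIs against 325 CPM. Because clusters were made from these cells, these genes describe the split and support nothing else.

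Members and other cells of the same cluster were closer in some of these genes than in others. In cluster 2 of the Club-Tracer library Hist1h4h stood at 336 CPM in 42 members and 300 CPM in 70 other cells, and Mbd1 at 392 and 311 CPM. Cavin2 stood at 932 and 456 CPM, and Pigr at 459 and 167 CPM. In cluster 8 Pigr stood at 153 CPM in 46 members and 106 in 438 other cells, Chad at 82.8 and 45.7 CPM, and Hist1h4h at 7.42 and 5.96 CPM. Outside cluster 2, Hist1h4h was thus low in members as well, at 9.38 CPM in cluster 4 and 3.16 CPM in cluster 5.

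Cells rich in Chia1, at 0.1% of UMIs or more, are the group the rule set aside by its Chia1 limit. Against the 293 such cells of the Club-Tracer library 201 of 2588 genes (7.77%) were called in members, 79 higher and 122 lower. Against the 91 of the BASC-Tracer library 200 of 3014 (6.64%) were called, 82 higher and 118 lower, or 63 and 150 after scaling to the median log2 ratio of 0.12. Scgb3a1 in Club-Tracer members lay mostly in the 17 members of cluster 5, at 50864 CPM, against 104 CPM in members of cluster 2, 308 in cluster 4 and 354 in cluster 8, and the median member had 1 UMI. Depths were alike, at medians of 28103 against 29487 UMIs in the Club-Tracer library. Members were higher in Scgb3a1 (8656 against 819 CPM, in a few cells), Pon1 (357 against 48.2 CPM) and Cldn4 (620 against 99.7 CPM). They were lower in Lyz1 (10.5 against 2028 CPM), Slc34a2, the phosphate transporter of AT2 cells (110 against 1669 CPM), and Napsa, a surfactant-processing protease (207 against 1958 CPM). The Chia1-rich cells had no Sftpc limit, while members had to be under 1% Sftpc. Low levels of AT2 genes in members thus partly follow from the choice of cells.

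Against the 3 clusters most like the members apart from cluster 8, the comparison was with cells of those clusters that were not members. Likeness was the correlation of log levels over 2000 variable genes, 0.94 for cluster 2, 0.89 for cluster 5 and 0.89 for cluster 4. It was highest for cluster 8, at 0.95. That cluster held the most members, and genes were not called against it. In the Club-Tracer library 10.0% of genes were called against cluster 2 (45 higher and 312 lower, or 94 and 12 after scaling to the median), 5.04% against cluster 5 (80 and 42, or 60 and 49 scaled) and 7.60% against cluster 4 (74 and 153, or 117 and 47 scaled). In the BASC-Tracer library 10.1% were called against cluster 2 (68 and 237, or 113 and 79 scaled) and 5.56% against cluster 4 (66 and 115, or 93 and 67 scaled). Relative to the median gene, Club-Tracer members were above cluster 2 in Scgb3a1, carried by the few members of cluster 5, by 7.20 on the log2 scale and in Retnla by 6.58, and below it in Hist1h4h by -1.54. They were above cluster 5 in Hist1h4h by 2.88 and Ager, an alveolar type 1 gene, by 2.91, and below it in Bpifa1 by -3.90. Against cluster 4 they were above in Pigr by 3.85 and Pon1 by 4.43, and below in the basal keratin genes Krt14 by -5.25 and Krt5 by -2.62. These ratios pool members of all clusters, and the part of that mix in them was not tested. Inside cluster 4, Club-Tracer members had Pon1 at 17.2 CPM against 15.3 in its other cells, and Krt5 at 158 against 244. Hist1h4h stood at 3.16 against 4.21 CPM inside cluster 5 and 336 against 300 inside cluster 2, both opposite to the pooled ratio. Pigr and Krt14 in cluster 4 and Bpifa1 in cluster 5 kept their direction, with Krt14 at 6.25 against 293 CPM.

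Few genes parted the members of the Club-Tracer and BASC-Tracer libraries. Of 2872 genes 50 (1.74%) were called between them, 17 higher in Club-Tracer members and 33 lower. The median log2 ratio was -0.21, and after scaling to it 22 were higher and 12 lower. Their spread over clusters differed, as 17 of 137 Club-Tracer and 2 of 40 BASC-Tracer members lay in cluster 5, where Club-Tracer members held Bpifa1 at 4629 and Reg3g at 4584 CPM. Higher in Club-Tracer members were Bpifa1 (851 against 1.20 CPM, 36.6% in 1 cell), Reg3g (803 against 6.61 CPM, 39.3% in 1 cell), Klk10, a secreted serine protease (136 against 8.41 CPM, 27.3% in 1 cell), and the chemokine genes Cxcl2 (131 against 10.8 CPM, 78.0% in 1 cell) and Ccl20 (50.5 against 2.40 CPM, 35.2% in 1 cell). Lower were Ndnf (11.3 against 118 CPM, 36.5% in 1 BASC-Tracer cell) and Lars2, the mitochondrial leucyl-tRNA synthetase (485 against 1867 CPM). Also lower were the AT2 genes Lamp3 (8.64 against 52.9 CPM), S100g (68.3 against 302 CPM, 84.1% in 1 BASC-Tracer cell) and Slc34a2 (110 against 403 CPM).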

How the data were processed

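The deposited matrices held UMI counts per gene and barcode, not normalized, made by the authors with Cell Ranger 6.1.1 on mm10, per the submitters' processing notes, from 5′ libraries, per the labels' protocols. They listed 32287 features, 2 of them reporters, and 62570890 UMIs for Club-Tracer, 29013077 for BASC-Tracer and 72256580 for AT2-Tracer cells. The rule was applied to these counts. Counts summed over a class were scaled to CPM. Shares carry Clopper-Pearson, CPM Poisson and ratios exact conditional 95% intervals. Low genes' differences are understated by adding 5 CPM. Scrublet's automatic threshold marked 0.0300% and 0.139% of Club-Tracer and BASC-Tracer barcodes, so the highest scores, 89 and 17 barcodes, were left out of clustering there, and 102 in the AT2-Tracer library. Cells were clustered jointly with scanpy 1.11.5 (2000 variable genes without rule genes or reporters, 30 components, 15 neighbours, Leiden resolution 1). Named genes were those called in both libraries, up to 20 higher and 10 lower by the Club-Tracer ratio, up to 4 per list, and fixed markers; other genes given came from the lists or comparisons. Members and lists were chosen with earlier results of these data known. The calls were checked on simulated data. Gene positions came from a GENCODE annotation of the same assembly.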

Additional observations from a re-analysis of the deposited data

How the results depend on the processing

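No paired analysis was possible because each group has 1 library. Members, given for Club-Tracer, then BASC-Tracer, then AT2-Tracer cells, numbered 30, 3 and 0 when 3 genes were asked for. They numbered 71, 25 and 4 at 3 or more UMIs per gene, and 11, 1 and 0 after thinning to 3000 UMIs. The Club-Tracer library had the highest number each time. These are numbers and not shares, from libraries of 2441, 869 and 2927 epithelial cells. Genes lower in Club-Tracer members were 245 at a minimum of 20 CPM, 44 at 100 CPM and 159 with cells weighted equally. Genes higher there were 19 with 20 CPM added, 55 with cells weighted equally and 109 for members with 3 genes. In the BASC-Tracer library higher genes were 105 at 20 CPM, 40 at 100 CPM, 43 with 20 CPM added and 139 for the 3 members with 3 genes, and lower genes 271, 82 and 304 at 20 CPM, at 100 CPM and for those 3 members. Leaving out barcodes shared between libraries, chosen after seeing the data, gave 103 higher genes; resolution 0.5, also added, put 123 members in the cluster highest in Kdr. Members with 3 genes reversed Upk3a (-1.88) and Ltf (-2.99) in the Club-Tracer library, and Ltf (-0.90), Pon1 (-4.23), Scgb3a2 (-2.69), Scgb3a1 (-6.40) and Scgb1a1 (-0.68) in the BASC-Tracer library, all log2 ratios; the cause was not tested. Held-out Kdr and Gnat3 shares in the BASC-Tracer library were 0 after thinning, where 1 cell was left.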
